A study of Mus musculus with 8 samples.

Results

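The Kruppel-like factor (KLF) genes Klf2, Klf3, Klf4, Klf5, Klf6, Klf7, Klf9, Klf10, Klf11 and Klf13 were followed in esophagi of healthy mice with and without MGL. They were chosen by gene symbol, as KLF genes of epithelium, endothelium and stress responses, and all 10 were found among the 32849 gene symbols of the deposited count table. MGL is monoacylglycerol lipase, encoded by Mgll, the enzyme that breaks down the endocannabinoid 2-arachidonoylglycerol. RNA of 4 MGL KO and 4 MGL WT esophagi was sequenced to ask what loss of the enzyme changes in resting tissue. The MGL KO mice lack the enzyme in the whole body, were bred in-house and were compared with WT littermates, and no treatment is given for these libraries. The study's animal methods give male and female mice of 8 to 12 weeks in general, without an age or sex for each of these libraries. All 4 Y-linked genes followed were expressed in every library, for example Eif2s3y at 69.5 to 83.8 normalized CPM.

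KLFs are transcription factors that bind GC-rich and CACCC sequences through a block of zinc fingers at the C-terminal end. Their N-terminal parts differ and recruit either activators such as the acetyltransferase p300 or repressors such as CtBP and SIN3A, so that family members can act on the same element in opposite ways. In stratified squamous epithelium KLF5 is known from the dividing basal layers and KLF4 from the layers that differentiate, whereas KLF2 is the member best known from endothelium under blood flow. KLF6, KLF9, KLF10 and KLF11 are known as genes that respond quickly to injury, glucocorticoids or transforming growth factor beta (TGF-beta).

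Expression is given as normalized CPM, the counts of a gene scaled to the library's counts of tested genes (CPM) after adjustment by TMM factors. Total counts lay between 13479069 and 17090152 per library. Mgll, the targeted gene, was at 12.6, 15.97, 13.1 and 13.2 normalized CPM in MGL KO replicates 1 to 4 and at 83.3, 66.6, 88.3 and 86.7 in WT replicates 1 to 4. It fell by 2.57 on the log2 scale (standard error 0.13, adjusted p = 0.000133, edgeR's quasi-likelihood test), and every MGL KO library was below every WT library. Of 14 markers of differentiated squamous epithelium 13 had a count, with Rhcg at 0 in all libraries, and all 12 markers of basal squamous epithelium and all 14 of skeletal muscle were present. Several libraries stood apart in their makeup. The summed expression of differentiated squamous markers was lowest in MGL KO replicate 2 (2200 normalized CPM) and WT replicate 3 (3044), against 6469 to 14423 in the others, and these libraries also had the highest summed skeletal muscle markers (128434 and 113245). MGL KO replicate 4 held 11638 normalized CPM of airway secretory and gland markers, against 12 to 90.6 in the other libraries. In whole tissue, fewer cells of a type and less RNA per cell cannot be told apart.

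Promoter windows are shown because KLF proteins bind GC boxes and CACCC elements, which can lie in front of KLF genes themselves. RefSeq start-site windows on GRCm38.p6 were at hand for 8 of the 10 members, without Klf5 and Klf10, and the 250 bases before the start were searched on both strands. The GC box GGGCGG was present in 7 of these 8 windows, against 32.7% of 32817 windows, and CACCC in 5 of 8, against 52.0%. Printed are the windows of the 4 members with an entry and the smallest p between the genotypes, Klf6, Klf9, Klf2 and Klf4. Capitals mark matches to GGGCGG or CACCC on either strand, and each sequence runs 5′ to 3′ on the strand of its gene.
Klf6: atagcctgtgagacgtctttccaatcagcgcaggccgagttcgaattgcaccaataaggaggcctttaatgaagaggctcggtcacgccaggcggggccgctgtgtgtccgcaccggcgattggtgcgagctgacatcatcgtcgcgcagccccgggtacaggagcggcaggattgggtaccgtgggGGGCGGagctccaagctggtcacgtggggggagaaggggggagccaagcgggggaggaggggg
Klf9: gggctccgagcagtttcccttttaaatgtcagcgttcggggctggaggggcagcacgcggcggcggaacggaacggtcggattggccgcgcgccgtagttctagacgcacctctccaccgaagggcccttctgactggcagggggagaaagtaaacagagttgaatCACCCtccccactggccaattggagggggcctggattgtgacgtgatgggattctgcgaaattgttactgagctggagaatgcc
Klf2: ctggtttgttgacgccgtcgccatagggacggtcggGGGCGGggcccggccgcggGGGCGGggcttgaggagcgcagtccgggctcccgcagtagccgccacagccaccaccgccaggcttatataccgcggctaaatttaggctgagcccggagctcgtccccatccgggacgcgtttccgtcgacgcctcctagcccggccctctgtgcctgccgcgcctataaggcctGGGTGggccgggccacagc
Klf4: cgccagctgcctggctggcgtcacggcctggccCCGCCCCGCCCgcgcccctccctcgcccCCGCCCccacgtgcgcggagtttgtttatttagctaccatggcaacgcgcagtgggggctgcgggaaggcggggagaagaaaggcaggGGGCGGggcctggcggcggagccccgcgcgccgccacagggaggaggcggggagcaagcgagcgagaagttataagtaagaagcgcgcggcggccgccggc

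On GRCm38.p6 the Klf6 window is chr13:5861239-5861488 and the Klf9 window chr19:23140976-23141225, both on the forward strand. The Klf2 window is chr8:72318812-72319061 on the forward strand and the Klf4 window chr4:55532476-55532725 on the reverse strand. Their GC content was 64.8%, 59.6%, 71.2% and 74.0% in that order, with a median of 52.4% over all windows. The E-box CACGTG, which the clock proteins bind, was found in the windows of Klf4, Klf6 and Klf11 and in 6.02% of all windows. The AP-1 site TGANTCA was found for Klf9 alone among the members (6.75% of all windows). Neither the cAMP response element TGACGTCA (1.55% of all windows) nor the CArG box of serum response factor (1.47%) was found in a member's window. These matches describe the letters in these windows, and no GC box and CACCC match shared more than 1 base.

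All 10 members were expressed at levels far above the counting limit, with between 270 and 4861 counts per library. The limit that a count of 0 allows, 3 counts, lay between 0.167 and 0.271 normalized CPM and covers counting error only. Per kb of the canonical transcript, the WT level was highest for Klf5, with 47.5 ± 4.74 normalized CPM per kb (SD, n = 4), and Klf4, with 42.6 ± 10.9 (SD, n = 4). Klf9 followed with 28.6 ± 5.66, Klf6 with 27.2 ± 1.61, Klf2 with 25.2 ± 3.71, Klf10 with 18.0 ± 2.08 and Klf3 with 15.4 ± 2.15 normalized CPM per kb (SD, n = 4 each). Neighbours in this order overlapped between WT libraries from Klf5 down to Klf3. Klf13 (11.6 ± 2.01), Klf7 (6.06 ± 0.71) and Klf11 (5.0 ± 0.21) were lowest, and each was separate from the gene next above it in all WT libraries. When all annotated exons were used as the length, Klf4 came before Klf5 and Klf3 moved from rank 7 to rank 9, while Klf9, Klf6, Klf2 and Klf10 kept their ranks.

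None of the 10 KLF genes changed between MGL KO and WT esophagi at an adjusted p under 0.05 in edgeR's quasi-likelihood test. The same test called 7 of 14864 genes (0.0471%), and the lowest adjusted p of a member was 0.523, for Klf6. In parentheses after a value, edgeR stands for this test. With edgeR's exact test and with DESeq2 the number of called members was also 0. At an unadjusted p under 0.05 the quasi-likelihood test gave 1 of the 10 members, Klf6, against 8.65% of all tested genes. The log2 fold change (MGL KO minus WT) was above 0 for 8 members, Klf2, Klf4, Klf5, Klf6, Klf7, Klf9, Klf11 and Klf13, and below 0 for Klf3 and Klf10, where 53.0% of all tested genes were above 0. The members' median log2 fold change was 0.24, against 0.02 over all tested genes, and their median absolute log2 fold change was 0.25, against 0.17. For 0 of the 10 members did the MGL KO and WT libraries separate without overlap. Complete separation was seen for 2.72% of all tested genes with MGL KO higher and for 3.30% with MGL KO lower. On the log2 scale the 95% intervals of the members reached up to 0.88 (Klf4) and down to -0.58 (Klf10), so that larger changes lie outside them.

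**Figure D1:**
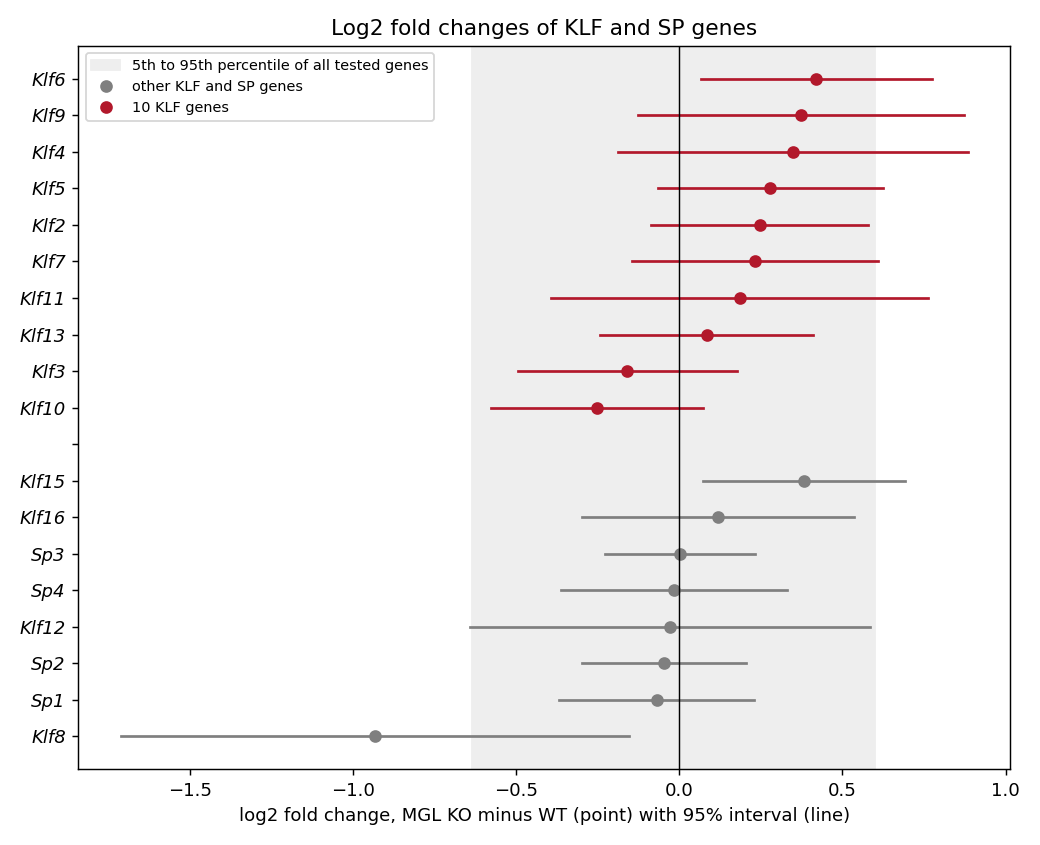
Log2 fold changes (MGL KO minus WT, points) with 95% intervals (lines) of the 10 KLF genes in red and the 8 other tested KLF and SP genes in grey. The shaded band spans the 5th to 95th percentile of all tested genes, and the intervals of Klf6, Klf15 and Klf8 leave out 0.

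Klf4 and Klf5 are the members known from squamous epithelium, but whole-tissue counts do not show which cells their transcripts came from. Klf4, which drives barrier formation and differentiation, is on the reverse strand of chromosome 4 of GRCm39 (55527139 to 55532528). Its level was 239, 132, 152 and 134 normalized CPM in MGL KO replicates 1 to 4 and 120, 177, 101 and 119 in WT replicates 1 to 4. MGL KO replicate 1 was the highest library and WT replicate 2 the next, while the other 3 MGL KO libraries (132 to 152) lay above the other 3 WT libraries (101 to 120). Over all 8 libraries the groups overlapped through WT replicate 2. These were also the 2 libraries with the highest summed differentiated squamous markers (13376 and 14423 normalized CPM), and the part of that in the Klf4 values was not tested. Mean levels were 164.5 ± 50.6 in MGL KO and 129.2 ± 33.1 in WT (SD, n = 4 each), which differ by 0.35 on the log2 scale (standard error 0.24, edgeR's adjusted p = 0.688). Without MGL KO replicate 1 the log2 fold change was 0.12, and without WT replicate 2 it was 0.54.

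Klf5, which maintains proliferation of basal keratinocytes, is on the forward strand of chromosome 14 (99536086 to 99552473). The MGL KO libraries were at 233, 215, 149 and 186 normalized CPM and the WT libraries at 149, 179, 170 and 146. MGL KO replicates 1, 2 and 4 lay above all WT libraries, and replicate 3 lay among the lowest WT libraries. The means were 195.5 ± 36.6 and 161.2 ± 16.1 (SD, n = 4 each), and the fitted log2 difference was 0.28 (standard error 0.15, edgeR's adjusted p = 0.643). Basal squamous markers, of which 6 of 12 were above and 6 below 0, had a median log2 fold change of -0.05 and none with an unadjusted p under 0.05. Expressed as a share of their sum, Klf5 was 3.77% ± 1.39 in MGL KO and 3.08% ± 0.76 in WT (SD, n = 4 each; two-sided exact permutation test, p = 0.429, 0.486 after adjustment over 4 such ratios). For Klf4 the share of the differentiated squamous sum was 2.93% ± 2.06 in MGL KO and 2.03% ± 0.90 in WT (SD, n = 4 each; exact permutation p = 0.486, adjusted 0.486). MGL KO replicate 2 had the highest share for both genes, 5.74% for Klf5 and 6.02% for Klf4, and WT replicate 3 the highest of the WT libraries, 4.17% and 3.31%. Both are the libraries with the least squamous marker expression of their groups. Per basal marker instead, a ratio chosen after the values were seen, Klf4 was 3.03% ± 0.64 and 2.41% ± 0.45 (SD, n = 4 each; exact permutation p = 0.2, adjusted 0.4).

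**Figure D2:**
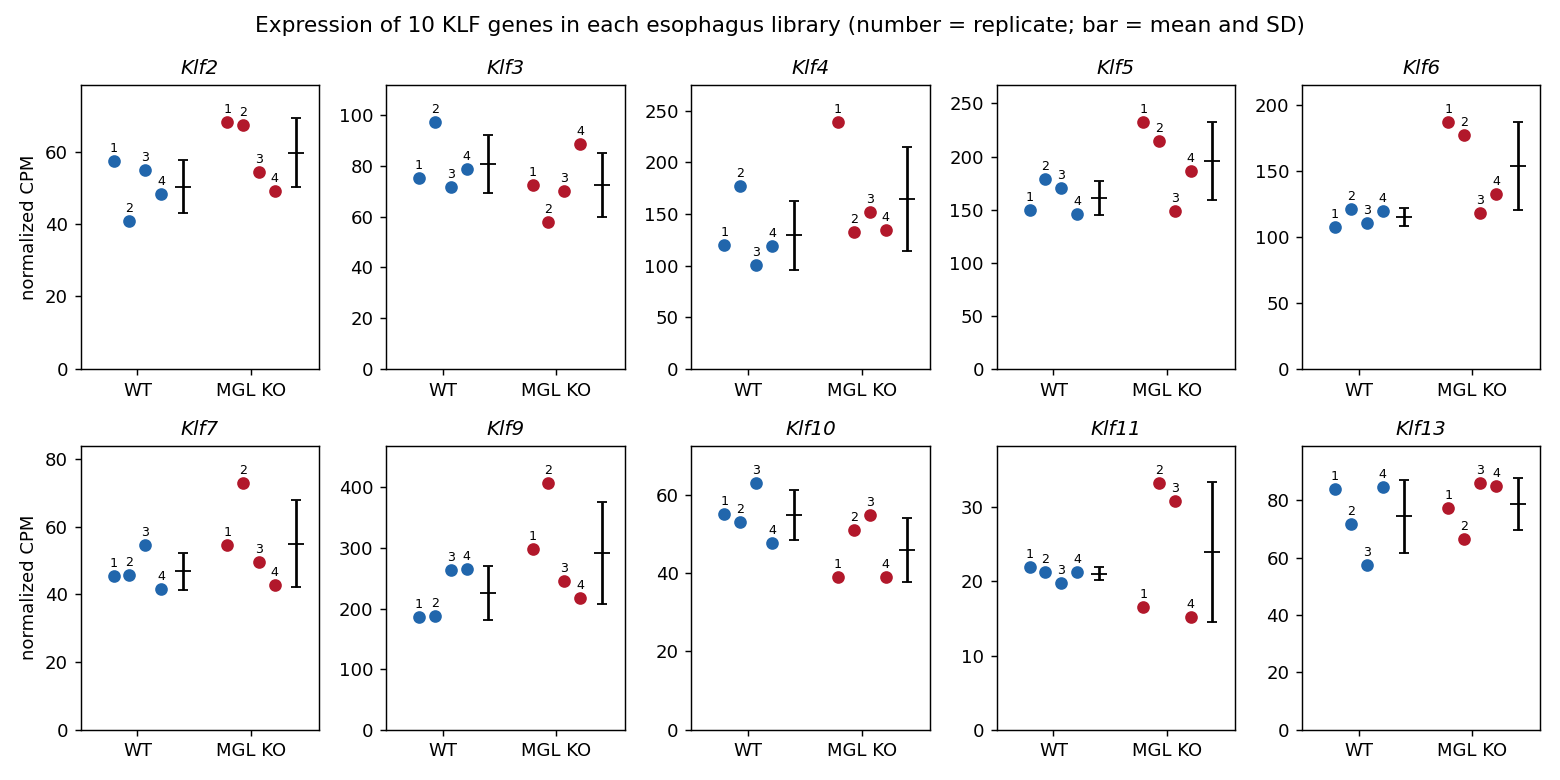
Normalized CPM of each KLF gene in the 4 WT (blue) and 4 MGL KO (red) libraries, numbered by replicate, with the mean and SD of each group as a bar. For every gene the range of the MGL KO libraries overlaps that of the WT libraries, and the Klf11 values spread from 15.2 to 33.3 in MGL KO and from 19.8 to 21.9 in WT.

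Klf6 is an early gene of tissue injury and wound repair, and it had the smallest p of the 10 members. It is on the forward strand of chromosome 13 (5911481 to 5920393), and no other annotated gene overlaps it. In the MGL KO libraries Klf6 was at 187, 177, 118 and 133 normalized CPM, and in the WT libraries at 108, 121, 111 and 120. MGL KO replicates 1, 2 and 4 lay above all WT libraries, and replicate 3 lay inside the narrow WT range. Mean levels were 154.0 ± 33.6 in MGL KO and 115.0 ± 6.80 in WT (SD, n = 4 each), giving 0.42 as log2 fold change (standard error 0.16, 95% interval 0.07 to 0.77). The unadjusted p of edgeR's quasi-likelihood test was 0.0249, and 703 genes had a smaller one, so that the adjusted p was 0.523. The log2 fold change lay between 0.34 and 0.51 under the 13 other settings that kept all libraries, none of which called it, and between 0.32 (without MGL KO replicate 1) and 0.53 (without MGL KO replicate 3) with 1 library left out.

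Klf9, an early target of glucocorticoid and thyroid hormone receptors, is on the forward strand of chromosome 19 (23118187 to 23148497). The MGL KO libraries had 298, 408, 246 and 217 normalized CPM and the WT libraries 186, 188, 264 and 265. Klf9 was highest in MGL KO replicate 2, and the WT libraries formed a low and a high pair, with MGL KO replicates 3 and 4 between those pairs. The means were 292.1 ± 84.0 and 225.6 ± 44.7 (SD, n = 4 each), and the fitted log2 difference was 0.37 (standard error 0.22, edgeR's adjusted p = 0.659). Without MGL KO replicate 2 the log2 fold change was 0.17, and without MGL KO replicate 4 it was 0.49.

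Klf10 and Klf11 are the TGF-beta-inducible members, which repress transcription through SIN3A. Klf10, on the reverse strand of chromosome 15 (38291703 to 38300959), had 39.01, 51.2, 54.8 and 39.1 normalized CPM in MGL KO and 55.2, 53.1, 63.2 and 47.9 in WT. MGL KO replicates 1 and 4 lay below all WT libraries and the other two lay within the WT range. Its mean was 46.0 ± 8.18 in MGL KO and 54.8 ± 6.36 in WT (SD, n = 4 each), which differ by -0.25 on the log2 scale (standard error 0.14, edgeR's adjusted p = 0.650). Klf11, on the forward strand of chromosome 12 (24701273 to 24712913), was at 16.6, 33.3, 30.8 and 15.2 normalized CPM in MGL KO and 21.9, 21.3, 19.8 and 21.3 in WT. The MGL KO libraries split into a pair above and a pair below all WT libraries, which were nearly equal to each other. Thus the means hardly differed, with 24.0 ± 9.41 and 21.0 ± 0.89 (SD, n = 4 each) and a fitted log2 difference of 0.18 (standard error 0.26, edgeR's adjusted p = 0.838). Without MGL KO replicate 2 it was -0.01 and without replicate 3 it was 0.04, against 0.33 and 0.35 without replicates 1 and 4. The low libraries for both genes were MGL KO replicates 1 and 4.

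Klf2, the flow-induced factor of endothelium, is on the forward strand of chromosome 8 (73072726 to 73075502), where it overlaps Eps15l1 on the other strand. Reads of the 2 genes cannot be told apart if counting did not use strand. Klf2 was at 68.2, 67.2, 54.4 and 49.1 normalized CPM in MGL KO and at 57.3, 40.8, 55.0 and 48.3 in WT. MGL KO replicates 1 and 2 were above all WT libraries, and the rest overlapped. The log2 fold change was 0.25 (standard error 0.15, adjusted p = 0.664, edgeR), with means of 59.7 ± 9.46 and 50.3 ± 7.41 (SD, n = 4 each), and without WT replicate 2 it was 0.16. Endothelial markers were on the other side of 0 (12 of 12 below it), with a median log2 fold change of -0.24 and 3 with an unadjusted p under 0.05 (Egfl7, Cd34 and Tek) and none called by the quasi-likelihood or exact test, DESeq2 or limma-voom. The summed endothelial markers were 325 to 556 normalized CPM in MGL KO and 436 to 588 in WT, lowest in MGL KO replicates 2 and 1. As a share of that sum, Klf2 was 17.1%, 20.7%, 9.79% and 10.4% in MGL KO replicates 1 to 4 and 9.83%, 7.99%, 12.6% and 8.22% in WT replicates 1 to 4. Replicates 1 and 2 of MGL KO exceeded all WT libraries and the other two did not (14.5% ± 5.30 against 9.66% ± 2.12, SD, n = 4 each; exact permutation p = 0.2, adjusted 0.4). Of 10 endothelial genes known as flow-responsive targets of KLF2 and KLF4, 3 were above and 7 below 0, with a median of -0.20 and no unadjusted p under 0.05. S1pr1, a sphingosine phosphate receptor, was at 31.9 ± 7.01 in MGL KO and 22.6 ± 6.15 in WT (SD, n = 4 each), whereas the gap junction gene Gja4 was at 4.23 ± 1.21 and 6.03 ± 1.13 (SD, n = 4 each).

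Klf3, Klf7 and Klf13 had the remaining differences. Klf3, a repressor that works through CtBP, is on the forward strand of chromosome 5 (64959875 to 64990261) and had 72.6, 58.0, 70.0 and 88.8 normalized CPM in MGL KO and 75.4, 97.3, 71.9 and 78.8 in WT. Both its lowest value (MGL KO replicate 2) and its highest (WT replicate 2) belonged to single libraries, and the log2 fold change was -0.16 (standard error 0.15, adjusted p = 0.764, edgeR). It was -0.06 without the one or without the other of these libraries and -0.27 without MGL KO replicate 4. Klf7, known from the development of sensory neurons, is on the reverse strand of chromosome 1 (64068606 to 64161508). It was at 54.5, 73.0, 49.6 and 42.8 normalized CPM in MGL KO and at 45.3, 45.7, 54.6 and 41.6 in WT. MGL KO replicate 2 was far above the WT range and the others lay inside it. The log2 fold change of Klf7 was 0.23 (standard error 0.17, adjusted p = 0.702, edgeR) and 0.07 without that library. Klf13, on the reverse strand of chromosome 7 (63536099 to 63588663), is a factor of T cells and heart development. It had 77.3, 66.6, 86.2 and 85.1 normalized CPM in MGL KO and 84.0, 71.8, 57.3 and 84.6 in WT. The groups covered nearly the same range apart from WT replicate 3, and the log2 fold change was 0.08 (standard error 0.14, adjusted p = 0.875, edgeR), or -0.02 without that library and up to 0.16 without one of the others. Noncoding genes overlap Klf3, Klf7, Klf9, Klf10 and Klf13 in the annotation, and for Klf13 a protein-coding gene on the other strand does as well.

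Of the MGL KO libraries, 2 stood highest for several members and for their sum. Summed over the 10 members, expression was 1285 and 1282 normalized CPM in MGL KO replicates 1 and 2, and 1011 and 990 in replicates 3 and 4. The WT libraries summed to 902, 996, 967 and 973, so that MGL KO replicate 4 lay inside and replicate 3 just above the WT range. These sums rest on the TMM factors, which were 0.996, 0.823, 1.02 and 1.11 in MGL KO replicates 1 to 4. In WT the factors were 0.942 to 1.08, and their part in the order of the libraries was not tested. On the log2 scale the median deviation of the members from their mean over the 8 libraries was 0.18 in MGL KO replicate 1 and 0.30 in replicate 2, and between -0.11 and -0.01 in the other 6. Not every member with a log2 fold change above 0 followed this. The deviation was -0.10 for Klf4 and -0.19 for Klf13 in MGL KO replicate 2, and -0.39 for Klf11 in replicate 1. MGL KO replicate 1 had the highest value of 4 members (Klf2, Klf4, Klf5 and Klf6) and replicate 2 that of 3 (Klf7, Klf9 and Klf11). These were also the 2 highest of the 8 libraries for Klf2, Klf5, Klf6 and Klf9. Their makeup differed, since replicate 1 was among the richest in squamous markers and replicate 2 the poorest. The mean log2 CPM of the basal squamous markers was also used as a covariate. With it the log2 fold change was 0.41 for Klf6, 0.40 for Klf4, 0.30 for Klf9 and 0.27 for Klf5. None of these was called by edgeR. Without MGL KO replicate 4, which held the airway gland markers, log2 fold changes ran from -0.27 for Klf3 to 0.49 for Klf9 and for Klf6, and the adjusted p stayed at 0.512 or above (edgeR).

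**Figure D3:**
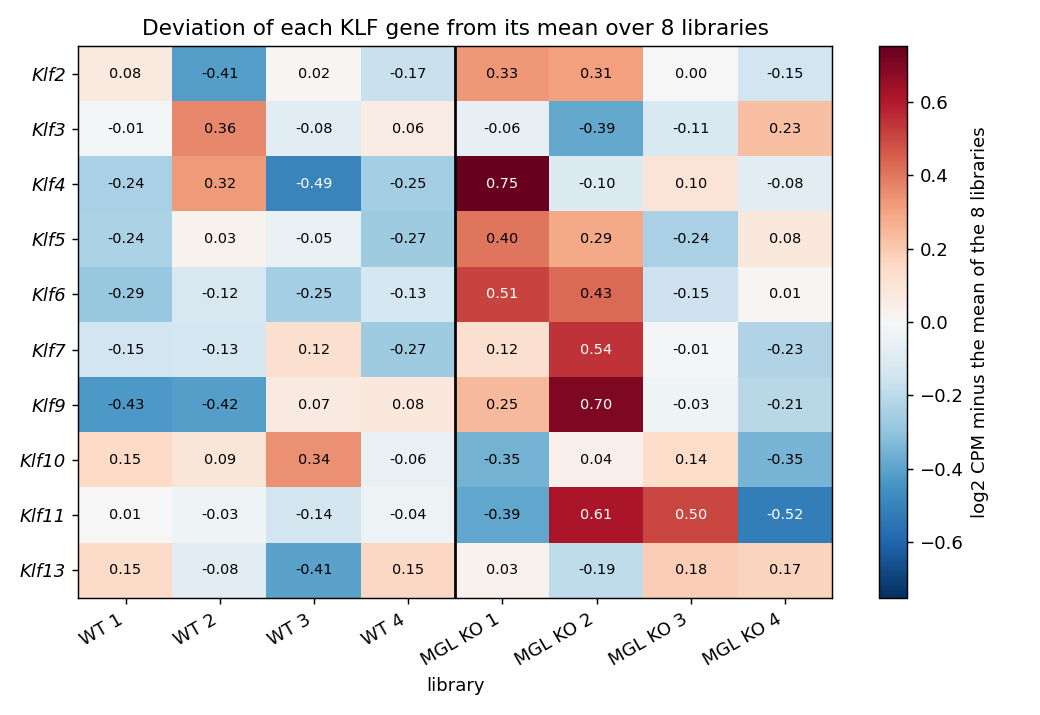
Deviation of log2 CPM of each KLF gene from its mean over the 8 libraries, with red above and blue below the mean, and WT libraries left of the black line. MGL KO replicates 1 and 2 hold the largest values above the mean, 0.75 for Klf4 and 0.70 for Klf9, whereas MGL KO replicates 3 and 4 show no common direction.

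Spread between libraries was wider in MGL KO than in WT for most members, as for most genes. The coefficient of variation was higher over the MGL KO libraries for 9 of the 10 members, against 70.1% of all tested genes, and the median ratio of the coefficients was 1.49 for the members and 1.44 for all genes. Klf11 stood out with a ratio of 9.33, higher than that of 99.2% of tested genes, followed by Klf6 with 3.69, higher than that of 91.2%. For Klf13 alone was the coefficient lower in MGL KO, with a ratio of 0.667.

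Members did not move as a block from library to library. Over the 8 libraries, after each group was centred on its mean, 22 of the 45 pairs of members had a Pearson r above 0, and the median r was -0.01. Between the members and 9845 other genes the median r was 0.02, so this is no trait of the members. The highest were Klf5 with Klf6 (r = 0.85), Klf7 with Klf9 (r = 0.78) and Klf10 with Klf11 (r = 0.77). At the other end, r was -0.82 for Klf2 with Klf3 and for Klf7 with Klf13, and -0.77 for Klf3 with Klf7. These are descriptions over 8 libraries that share depth and tissue makeup. Among 9845 other genes with at least 10 normalized CPM on average, the gene most like Klf9 was Mtrf1l (r = 0.997, Spearman rho = 0.952), and that most like Klf7 was Cebpz (r = 0.997, rho = 0.952). For Klf5 it was Klhdc10 (r = 0.990, rho = 1.00), for Klf3 Rps4l (r = 0.987, rho = 0.929), for Klf13 Coro1c (r = 0.982, rho = 0.857) and for Klf6 Psme3 (r = 0.981, rho = 0.952). S100a16 was most like Klf4 (r = 0.970, rho = 0.976), Lnpep most like Klf2 (r = 0.952, rho = 0.857), Spata2 most like Klf11 (r = 0.950, rho = 0.881) and Serf2 most like Klf10 (r = 0.948, rho = 0.976). Each is the highest of 9845 values over 8 libraries.

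Among the other genes of the KLF and SP families, which bind related GC-rich elements, 8 of 16 were expressed enough to be tested and none was called. Their median log2 fold change was -0.02, with 3 above 0. Klf15, a glucocorticoid-inducible factor of muscle and lipid metabolism, was at 52.8, 42.6, 47.8 and 48.7 normalized CPM in MGL KO and 30.7, 32.1, 40.2 and 44.3 in WT. Of the MGL KO libraries, 3 lay above all WT libraries and replicate 2 lay below WT replicate 4. Its log2 fold change was 0.38 (standard error 0.14, unadjusted p = 0.0214 and adjusted p = 0.523, edgeR). Klf15 lies at 90438998 to 90452220 of chromosome 6 on GRCm39, 1.63 Mb from Mgll, and no KLF gene of the 10 followed here is on that chromosome. Klf8, close to the counting limit, was at 0.86 ± 0.30 normalized CPM in MGL KO and 1.67 ± 0.48 in WT (SD, n = 4 each; log2 fold change -0.93, standard error 0.34, unadjusted p = 0.0240 and adjusted p = 0.523, edgeR). The widely expressed Sp1, Sp2, Sp3 and Sp4 had log2 fold changes between -0.07 and 0.00, Klf12 one of -0.03 and Klf16 one of 0.12. Klf1, Klf14, Klf17 and Sp5 to Sp9 were too low to be tested, and Sp8 had no count.

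The cofactors and turnover factors of KLF proteins also showed no call by the quasi-likelihood test, the exact test, DESeq2 or limma-voom. Of 13 such genes, 10 were above 0 with a median log2 fold change of 0.11, and none had an unadjusted p under 0.05. The corepressor gene Ctbp2 was at 45.0 ± 7.85 normalized CPM in MGL KO and 36.7 ± 3.08 in WT (SD, n = 4 each; log2 fold change 0.29, adjusted p = 0.588, edgeR). Crebbp, an acetyltransferase gene, was at 63.8 to 77.6 in MGL KO and 60.0 to 62.5 in WT, without overlap but with a log2 fold change of 0.14 (adjusted p = 0.669, edgeR). Ep300 (78.5 ± 3.47 against 72.2 ± 5.71) and Hdac3 (64.0 ± 3.66 against 69.0 ± 4.78) overlapped between groups (SD, n = 4 each).

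Genes that respond to the same stimuli as Klf6, Klf9, Klf10 and Klf11 were set beside them. These lists, and those of TGF-beta targets and clock genes below, were written with earlier results of these data known. They hold genes that the study had reported as changed in these esophagi, such as Dusp1, Fos and Ccn2. Of 16 immediate early genes, which growth factors and injury induce within minutes, 14 were above 0 and 9 had an unadjusted p under 0.05, with a median log2 fold change of 0.57. The quasi-likelihood test called only Dusp1 among them, which rose by 1.80 on the log2 scale (adjusted p = 0.0494, edgeR). The exact test on filtered genes called Dusp1, Fos, Atf3 and Zfp36, on all genes with a count the same without Atf3, DESeq2 all 4 and Fosb, and limma-voom Dusp1 and Zfp36. Their sum was 1196, 900, 720 and 792 normalized CPM in MGL KO replicates 1 to 4 and 486 to 559 in WT, so that replicates 1 and 2 were highest here as for Klf6. Of 9 tested glucocorticoid-responsive genes all were above 0, with a median of 0.45, 5 at an unadjusted p under 0.05 and none called by any of these tests. Their sum was highest in MGL KO replicates 2 and 3 (1563 and 1583), the libraries with the highest Klf11, whereas Klf9 was highest in replicates 2 and 1. The glucocorticoid sum was 1145 and 1086 in replicates 1 and 4, against 646 to 1076 in WT. The glucocorticoid genes Tsc22d3 (225 ± 22.9 against 137 ± 46.7 normalized CPM) and Pdk4 (588 ± 280 against 261 ± 70.5) had adjusted p of 0.478 and 0.485 (SD, n = 4 each; edgeR).

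Targets of TGF-beta, which induces Klf10 and Klf11, are given as a list of 8 genes. Of these, 6 were above 0 and 5 had an unadjusted p under 0.05, with a median log2 fold change of 0.59 and none called by the quasi-likelihood test. Pmepa1 and Ccn2 were called by both runs of edgeR's exact test, DESeq2 and limma-voom. The sum of the list was highest in MGL KO replicate 1 (456), where Klf10 and Klf11 were both below all WT libraries, and it was 395 to 456 normalized CPM in MGL KO and 306 to 382 in WT. Pmepa1, a feedback inhibitor of the pathway, was at 63.2 ± 12.7 in MGL KO and 31.8 ± 0.76 in WT (adjusted p = 0.0681), and the matricellular gene Ccn2 at 65.3 ± 14.8 and 22.4 ± 6.16 (SD, n = 4 each; adjusted p = 0.0896, edgeR). Klf9 and Klf10 are also known to cycle with the circadian clock. The clock output genes were all below 0 (9 of 9, median -0.44, 3 at an unadjusted p under 0.05), for example Dbp at 32.0 ± 19.7 against 88.3 ± 33.9 normalized CPM (SD, n = 4 each; adjusted p = 0.478, edgeR). Clock genes of the opposite phase were all above 0 (5 of 5, median 0.86, all 5 at an unadjusted p under 0.05), for example Nfil3 at 23.4 ± 9.07 against 6.48 ± 0.46 (SD, n = 4 each; adjusted p = 0.0966, edgeR). The quasi-likelihood test called no clock gene on these lists, whereas edgeR's exact test and DESeq2 called Nfil3 and DESeq2 also Dbp. The time of tissue collection is not given in the sources used here. The part of these stimuli in the KLF values was not tested.

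**Figure D4:**
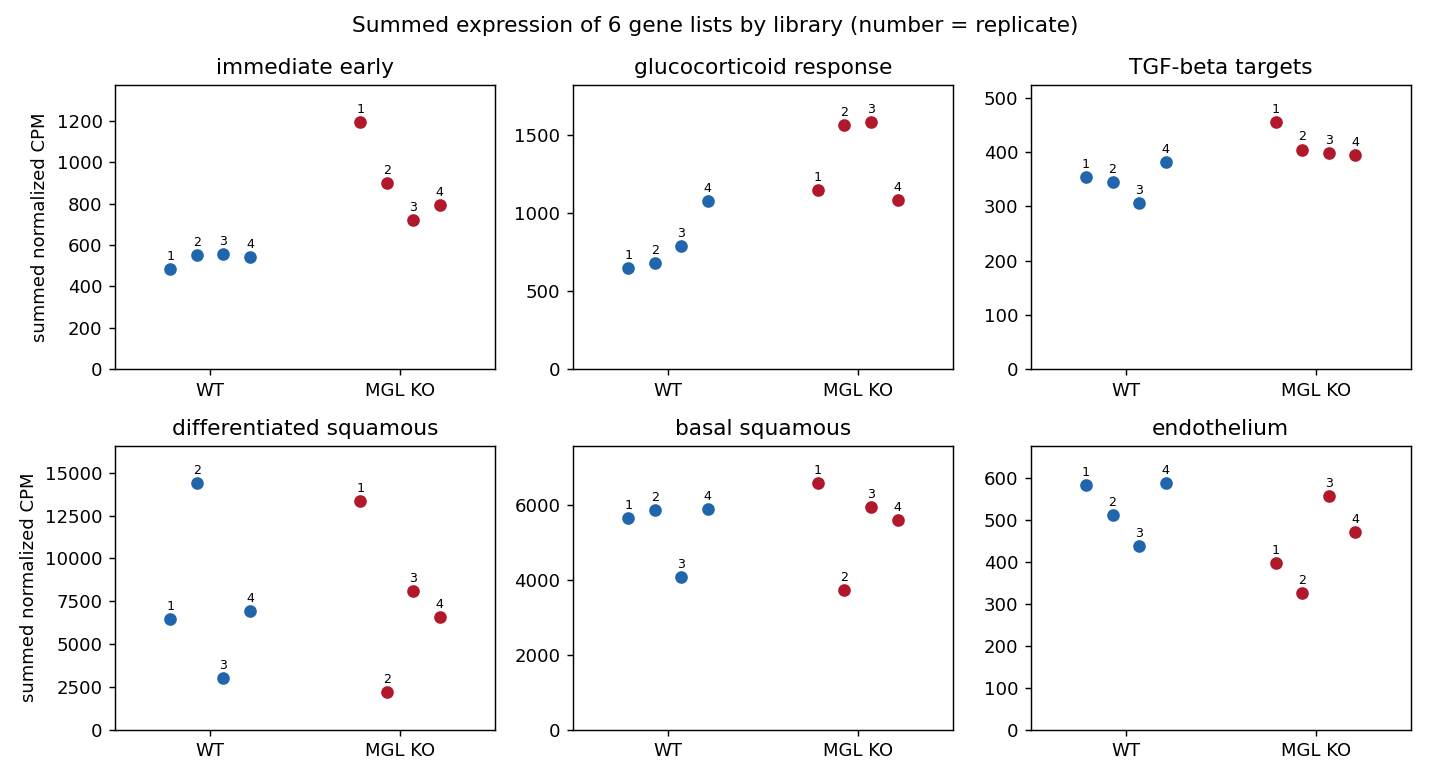
Summed normalized CPM of 6 gene lists in the 4 WT (blue) and 4 MGL KO (red) libraries, numbered by replicate. The immediate early, glucocorticoid response and TGF-beta sums do not overlap between groups, whereas the squamous and endothelial sums do, with MGL KO replicate 2 lowest in all 3 of these. The glucocorticoid sums nearly meet, at 1086 in MGL KO replicate 4 and 1076 in WT replicate 4. All lists were written with earlier results of these data known, so a separation of their sums is no independent result.

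The small differences of the KLF genes held their direction under most settings. Other tests, scalings, filters or covariates and leaving out 1 library gave 210 values for the 10 members, of which 207 kept direction and call. The direction turned for Klf11 and Klf13 only, whose log2 fold changes were among the closest to 0. No member was called under any of these settings.

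**Figure D5:**
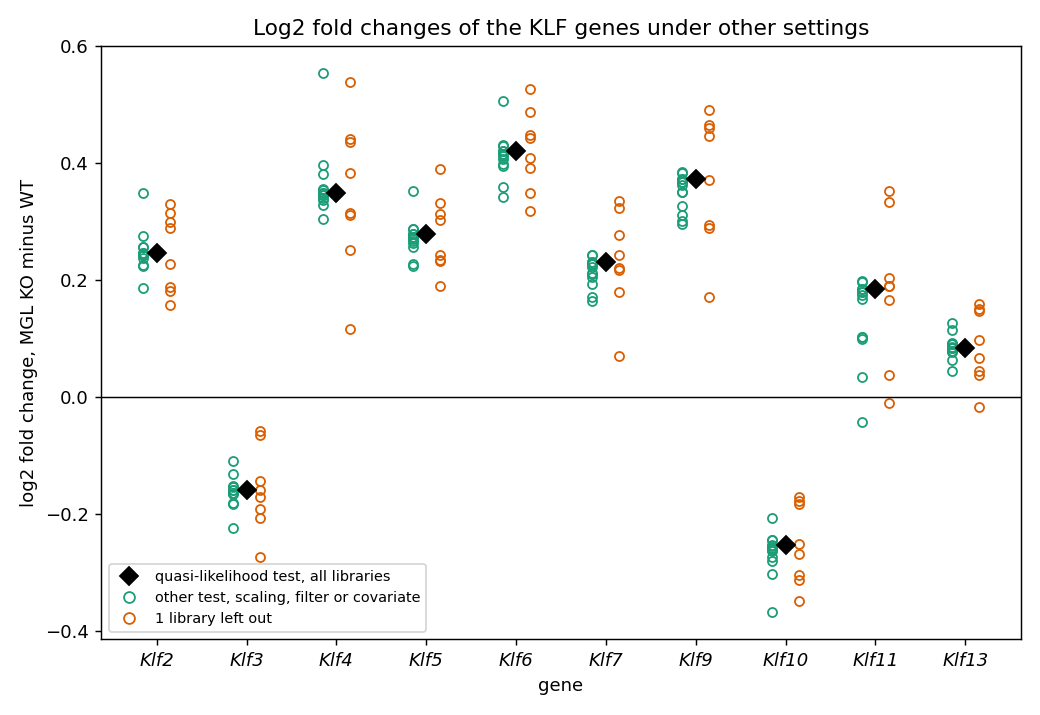
Log2 fold change (MGL KO minus WT) of each KLF gene in edgeR's quasi-likelihood test on all libraries (black), under the other tests, scalings, filters or covariates (green) and with 1 library left out (orange). Klf6 stays between 0.32 and 0.53, and Klf11 and Klf13 cross 0.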

How the data were processed

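RNA of 4 MGL KO and 4 MGL WT frozen esophagi was extracted with TRIzol, selected for poly(A) tails and sequenced on NovaSeq instruments. The submitters' processing notes name FastQC 0.11.9, Cutadapt, STAR 2.7.10b and the build GRCm39. The authors deposited whole-number counts per gene symbol and library, without normalization. The counting tool, annotation and use of strand are not given in the sources used here.

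Genes were kept by filterByExpr at a minimum count of 10 (14864 of 22721 symbols with a count, holding 98.1% to 99.9% of each library) and scaled by TMM. Genotypes were compared with edgeR 4.0.16 (R 4.3.3) by the quasi-likelihood test, two-sided, with Benjamini-Hochberg adjustment over all tested genes and a threshold of 0.05. The study's methods name the exact test, which was an alternative, as were DESeq2 1.42.0, limma-voom (limma 3.58.1), a robust fit, other scalings and filters, other thresholds, the replicate block, covariates and leaving out each library. Calls of list genes by the other tests were added after the data were seen. Standard errors were the absolute log2 fold change over the square root of F, and log2 CPM used a prior count of 1. The scripts were tested on simulated data. The study counts 4 esophagi per genotype, and p-values measure the spread between these libraries. No pair within a group was alike within sampling noise (chi-square per degree of freedom 13.6 or more over genes with at least 20 counts).

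The members and gene lists were chosen with earlier results of these data known. Named genes were the members, Mgll, the other KLF and SP genes, up to 4 genes with the smallest p of a described list, and the gene most like each member. Fosb and Rhcg fall outside this rule and were named after their values were seen. Positions are from GENCODE M39 on GRCm39, and promoter windows from RefSeq on GRCm38.p6, a different build, so their coordinates are not interchangeable.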

Additional observations from a re-analysis of the deposited data

Results flagged for a closer look

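Of 40 groups of 4 libraries compared over the tested KLF and SP genes, Mgll and the summed members, 2 had a library far from the other 3, and chance gives about 2. Klf16 was at 9.48 normalized CPM in MGL KO replicate 2, where the nearest other MGL KO library was at 11.4. Sp3 was at 68.9 normalized CPM in MGL KO replicate 1, where the nearest other was at 57.4. None of the 10 chosen KLF genes had such a library.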

How the results depend on the processing

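No member and no other KLF or SP gene was called under any setting. The count of called genes, 7 with the quasi-likelihood test, was 65 and 42 with the exact test on filtered genes and on all genes with a count, 130 with DESeq2, 25 with limma-voom (sample quality weights), 14 given the basal squamous covariate and 13 at a threshold of 0.1. It was 2 with the robust fit, without a filter, with the replicate block and at a threshold of 0.01, 3 with the Y-linked covariate, and between 2 and 5 when single libraries were dropped. What causes these shifts was not tested. Higher in MGL KO were 3 of the 7 calls, against 5 of 6 with library size alone, 20 of 25 with limma-voom and 80 of 130 with DESeq2. It was 42 of 65 and 30 of 42 with the exact test on filtered genes and on all genes with a count, and 1 of 2 with the robust fit. The log2 fold change of Klf11 was -0.042 with the Y-linked covariate and -0.010 without MGL KO replicate 2 (-0.010 to 0.35 over all left-out libraries). That of Klf13 was -0.017 without WT replicate 3 (-0.017 to 0.16 over all left-out libraries). Mgll was called throughout, between -2.65 and -2.52. Same-numbered libraries did not deviate together (r between -0.28 and 0.08 over genes). The labels do not say whether the numbers pair the samples, and these correlations cannot decide it, since tissue makeup also moves them. The replicate block changed no call of a member. The median of all genes stayed between -0.03 and 0.03 under all settings.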

Other observations

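Fibroblast markers were below 0 in 8 of 8 genes, with a median log2 fold change of -0.31, 2 at an unadjusted p under 0.05 and none called by edgeR's quasi-likelihood or exact test, DESeq2 or limma-voom. Of 9 macrophage markers 8 were below 0, with a median of -0.86, and 7 of them had an unadjusted p under 0.05 with none called by these tests, while their sum overlapped between groups. It was 374, 349, 440 and 1594 normalized CPM in MGL KO replicates 1 to 4, so that replicate 4, with the airway gland markers, alone exceeded 440, and 1367, 470, 363 and 747 in WT replicates 1 to 4. C1qa, a complement gene of resident macrophages, was at 44.0 ± 4.77 normalized CPM in MGL KO and 78.1 ± 34.8 in WT (SD, n = 4 each; adjusted p = 0.503, edgeR). All 4 tested erythroid genes were below 0 (median -1.37), and their list summed to 29.9 to 150.0 normalized CPM in MGL KO and 116 to 432 in WT. Smooth muscle markers were mixed, with 5 of 8 above 0 and a median of 0.06. The fast myosin gene Myh4 was at 1055 ± 679 in MGL KO and 2661 ± 725 in WT (SD, n = 4 each; adjusted p = 0.485, edgeR), although 8 of 14 skeletal muscle markers were above 0 with a median of 0.01. The 6 tested lymphocyte genes were below 0 (median -1.40, none with an unadjusted p under 0.05), with 151 normalized CPM in WT replicate 1 and at most 45.4 in any other library. Adipocyte markers were above 0 in 7 of 8 genes (median 0.33), none with an unadjusted p under 0.05. All 7 tested airway ciliated markers were above 0, 5 with an unadjusted p under 0.05, none called by the quasi-likelihood test of edgeR and Tppp3 called by DESeq2 (adjusted p = 0.0324). Their list summed to 1462 normalized CPM in MGL KO replicate 4, 812 to 905 in the other MGL KO libraries and 417 to 731 in WT, and Foxj1, the regulator of motile cilia, was at 228 in MGL KO replicate 4 and at most 1.65 elsewhere. Tppp3 alone made 827 ± 53.4 in MGL KO and 508 ± 139 in WT (SD, n = 4 each). Of the airway secretory and gland list, Ltf was at 1973 normalized CPM in MGL KO replicate 4 and at most 15 elsewhere, with an adjusted p of 0.478 by the quasi-likelihood test and 0.0207 and 0.0395 by edgeR's exact test on filtered genes and on all genes with a count. Summed Y-linked genes were 186 to 224 normalized CPM in MGL KO and 194 to 211 in WT.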
